A study of Mus musculus with 18 samples.

Results

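Matrix proteases and their inhibitors were taken as the genes named as matrix metalloproteinases (*Mmp*), tissue inhibitors of metalloproteinases (*Timp*), membrane-bound disintegrin metalloproteinases (*Adam*) or secreted ones with thrombospondin repeats (*Adamts*). Of 55487 genes counted, 78 matched these names, with 1 further *Mmp* gene left out, and 58 of the 78 had at least 10 reads in at least 4 of the 18 libraries. These 58 members were 17 of 22 *Mmp*, all 4 *Timp*, 19 of 33 *Adam* and 18 of 19 *Adamts* genes. By the same count rule 23775 of all genes passed. MMPs and ADAMTS enzymes are zinc proteases that cut collagens, proteoglycans and other matrix proteins outside the cell, and most are made as inactive precursors. ADAMs sit in the plasma membrane and release the outer parts of growth factors, cytokines and receptors, while several lack an active zinc site and act in adhesion. TIMPs bind and block the active site of these enzymes, and in adipose tissue the balance of both sets the pericellular collagen in which adipocytes enlarge or are replaced.

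RNA was sequenced from subcutaneous white adipose tissue (sWAT) of male mice aged 12 weeks, 4 per genotype, and from brown adipose tissue (BAT) of male mice aged 4 weeks, 5 per genotype. All mice carried floxed *Csn8* on both alleles (*Csn8* f/f). In *Csn8* AKO mice the adiponectin promoter drives Cre in adipocytes, where internal exons of *Csn8*, listed as *Cops8*, are deleted. *Csn8* f/f littermates without Cre, which the labels call WT, were the controls (Ctrl). Each library has its own number within its group and was taken as a separate animal. The comparison asks how loss of this subunit of the COP9 signalosome, which removes NEDD8 from cullins, changes the tissue. Libraries held 15835721 to 66719937 counted reads, with 15835721 to 23109603 in sWAT and 26658593 to 66719937 in BAT. Tissue and age cannot be told apart.

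Several libraries stood apart before any comparison. Levels are given as CPM, reads of a gene scaled to library size with trimmed-mean-of-M-values (TMM) factors within each tissue. Values are listed in the order of library 1 to 4 in sWAT and 1 to 5 in BAT. Summed CPM of 8 T cell markers were 286, 10.9, 10.5 and 18.3 in Ctrl and 35.6, 373, 10.5 and 14.2 in *Csn8* AKO of sWAT. Those of 7 B cell markers were 189, 5.82, 8.82 and 15.7 in Ctrl and 17.0, 502, 5.38 and 8.23 in *Csn8* AKO. Ctrl 1 and *Csn8* AKO 2 of sWAT lay far above the other sWAT libraries in both lists. Skeletal muscle markers summed to 2992 CPM in sWAT Ctrl 3 and 1799.9 CPM in sWAT *Csn8* AKO 4, and to 125 and 219 CPM in BAT *Csn8* AKO 1 and 5 against at most 3.61 CPM in the other BAT libraries. Ribosomal RNA genes took 2.38, 18.2, 19.8 and 1.80 in Ctrl and 3.96, 4.83, 31.8 and 47.8 in *Csn8* AKO of sWAT, in percent of reads, and 15.1% in BAT *Csn8* AKO 2 and 10.1% in BAT Ctrl 1, against at most 4.10% in the other BAT libraries. Members and related genes were also compared without the lymphocyte-marker libraries or the *Csn8* AKO 3 and 4 libraries of sWAT and without *Csn8* AKO 1 and 5 of BAT, sets chosen after the data were seen. The others that stood apart were left out only one at a time, and marker sums use all libraries.

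The targeted gene *Cops8* had 33.9, 36.2, 34.8 and 35.00 CPM in Ctrl and 33.0, 29.2, 30.7 and 36.0 CPM in *Csn8* AKO of sWAT, and the genotypes overlapped (log2 fold change -0.12 ± 0.11 (SE), edgeR adjusted p = 0.623, lower in 3 of 4). In BAT it had 36.5, 39.0, 40.1, 37.1 and 44.6 CPM in Ctrl and 28.2, 29.7, 34.5, 31.4 and 36.9 CPM in *Csn8* AKO. All 5 *Csn8* AKO libraries lay below the Ctrl mean, with the highest inside the Ctrl range, and *Cops8* fell by 0.30 ± 0.09 on the log2 scale (SE, edgeR adjusted p = 0.0211). A count over the whole gene does not show whether internal exons are missing, and the tissue also holds cells in which this Cre is not active. The tissue labels matched their defining markers: *Ucp1*, the brown fat uncoupling protein, was the most abundant of 8 brown adipocyte markers in BAT, where they summed to 4433 to 7808 CPM in Ctrl, against 101.4 to 199.9 CPM in Ctrl sWAT.

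Levels of different genes were compared in Ctrl libraries as TPM, which also scales by gene length. In sWAT the leading members were the inhibitor *Timp2* at 307 ± 100.7 TPM and the gelatinase *Mmp2* at 251.9 ± 67.7 TPM (mean ± SD, n = 4). Their ranges across libraries overlapped, at 220.2 to 452 and 189.9 to 343 TPM, and their order within each library was not compared. The matrix-bound inhibitor *Timp3* followed at 109 ± 28.7 TPM, with a range below both of these. Next came the widely expressed sheddase *Adam9* at 72.7 ± 16.9 TPM and the aggrecanase *Adamts5* at 67.2 ± 13.6 TPM, which did not differ beyond their spread. In Ctrl BAT *Timp3* was the first member at 62.7 ± 17.4 TPM (n = 5), *Adam9* the second at 43.3 ± 5.75 TPM, and *Adam12*, a sheddase known from differentiating mesenchymal cells, the third at 30.8 ± 15.0 TPM with a wide spread. *Timp2* reached 14.6 ± 1.89 TPM in Ctrl BAT and *Mmp2* 28.3 ± 3.82 TPM. *Timp1* was low in both tissues, at 2.89 ± 1.69 TPM in Ctrl sWAT and 0.529 ± 0.194 TPM in Ctrl BAT.

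In sWAT, 4 ADAM genes and 1 inhibitor were higher in *Csn8* AKO mice. The leukocyte sheddase *Adam8* rose by 2.17 ± 0.29 on the log2 scale (SE, n = 4 per genotype) and the inhibitor *Timp1* by 2.22 ± 0.55. *Adam12* rose by 1.22 ± 0.13, the adhesion protein *Adam23* by 0.94 ± 0.21 and the sperm-type *Adam5* by 1.52 ± 0.36. In each of these 5 all 4 *Csn8* AKO libraries lay above all 4 Ctrl libraries. Several calls were lost without single libraries, as given with each gene. *Adam5* met the count rule through its *Csn8* AKO libraries, the group where it was high.

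Of the 58 members 49 passed the filter on low counts, and *Adam1b*, *Adam3*, *Adam21*, *Adam32*, *Adamts8*, *Adamts13*, *Mmp13*, *Mmp16* and *Mmp21* did not. They were read against all 18843 genes tested with edgeR's quasi-likelihood test, called at a Benjamini-Hochberg adjusted p under 0.05. Members called higher were 5 of 49, against 2.30% of all genes tested, and 4 of them had a log2 fold change of at least 1, against 1.41%. Both counts include *Adam5*, which met the count rule through its *Csn8* AKO libraries, where it was high. Members called lower were 0 of 49, against 3.00% of all genes and 1.91% at a log2 fold change of at most -1, with 1 at an unadjusted p under 0.05 by edgeR, 1 called lower by DESeq2 and 1 by limma voom, *Timp4* each time. DESeq2 also called *Adam3* lower, outside the 49. Genotypes did not overlap in 8 of the 49, against 14.0% of all genes, a share close to that background. The median log2 fold change was 0.45 over the members tested and 0.03 over all genes, with 38 members above 0 and 11 below. Without *Csn8* AKO 3 and 4 the median was 0.242 over the members and 0.038 over all genes. These counts moved with single libraries and with scaling. Members called were 2 without Ctrl 2, Ctrl 3, Ctrl 4 or *Csn8* AKO 1, 3 without *Csn8* AKO 3, and 11 without *Csn8* AKO 2, a library high in lymphocyte markers.  With scaling by library size alone, 1 member was called higher and 1 lower, and all 5 but *Adam8* lost their call. Leaving out both lymphocyte-marker libraries gave 11 calls, 10 higher and 1 lower, and leaving out *Csn8* AKO 3 and 4, highest in ribosomal RNA, gave 3, of which 2 were higher.

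Fold changes are given with the number of *Csn8* AKO libraries on their side of the Ctrl mean. *Adam8*, carried by macrophages, neutrophils and other leukocytes, had 11.7, 9.98, 10.8 and 11.0 CPM in Ctrl and 32.8, 66.8, 67.9 and 28.3 CPM in *Csn8* AKO of sWAT. Every *Csn8* AKO library lay above every Ctrl library, with *Csn8* AKO 2 and 3 at about the same high level and *Csn8* AKO 1 and 4 lower (log2 fold change 2.17 ± 0.29 (SE), edgeR adjusted p = 0.00453, higher in 4 of 4). This was the only sWAT member whose call held under all alternatives run, with adjusted p of 7.14e-11 to 0.0292 across them. *Adam12* had 45.4, 47.1, 44.1 and 52.3 CPM in Ctrl and 122, 98.4, 96.8 and 122 CPM in *Csn8* AKO. The 4 *Csn8* AKO libraries were close together and far above the 4 Ctrl libraries (log2 fold change 1.22 ± 0.13 (SE), edgeR adjusted p = 0.00180, higher in 4 of 4). The call was lost only with scaling by library size alone (adjusted p = 0.0575; range over the alternatives 2.12e-12 to 0.0575). The same-strand transcript *Gm19514* lies within *Adam12*, so that reads of both are uncertain. *Adam23*, a member without a complete zinc site that binds integrins and neuronal ligands, had 71.4, 57.1, 50.8 and 54.1 CPM in Ctrl and 102, 83.3, 100.4 and 163 CPM in *Csn8* AKO. Here *Csn8* AKO 4 was the highest and *Csn8* AKO 2 the lowest of its group, and the groups did not overlap (log2 fold change 0.94 ± 0.21 (SE), edgeR adjusted p = 0.0330, higher in 4 of 4). *Adam23* was not called without 5 of 8 single libraries (log2 fold change 0.87 to 0.99), with library size alone and without *Csn8* AKO 3 and 4 (adjusted p 0.00149 to 0.335 over the alternatives).

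Among the inhibitors, *Timp1*, which blocks most soluble MMPs, had 1.27, 1.32, 0.237 and 0.831 CPM in Ctrl and 3.33, 6.70, 5.58 and 1.57 CPM in *Csn8* AKO of sWAT. These levels rest on few reads, 28, 26, 4 and 16 in Ctrl and 72, 148, 81 and 21 in *Csn8* AKO. Each *Csn8* AKO value exceeded the highest Ctrl value, *Csn8* AKO 4 only just (log2 fold change 2.22 ± 0.55 (SE), edgeR adjusted p = 0.0462, higher in 4 of 4). *Timp1* was not called without 7 of 8 single libraries (log2 fold change 1.90 to 2.42), with library size alone, without both lymphocyte-marker libraries and without *Csn8* AKO 3 and 4 (adjusted p 0.00125 to 0.133 over the alternatives). *Timp2*, the inhibitor that also helps MMP14 to activate pro-MMP2, had 334, 394, 483 and 529.9 CPM in Ctrl and 815, 323, 991 and 607 CPM in *Csn8* AKO. *Csn8* AKO 1, 3 and 4 were above all Ctrl libraries, and *Csn8* AKO 2 was below them (log2 fold change 0.65 ± 0.31 (SE), edgeR adjusted p = 0.282, higher in 3 of 4). *Timp2* had an adjusted p of 0.0328 without *Csn8* AKO 2 and 0.0406 without both lymphocyte-marker libraries, in a range of 0.0328 to 0.756. *Timp3*, which also inhibits ADAM17, had 329 ± 62.9 CPM in Ctrl and 291 ± 83.2 CPM in *Csn8* AKO (SD, n = 4 each), with overlapping groups (log2 fold change -0.18 ± 0.24 (SE), edgeR adjusted p = 0.728, lower in 3 of 4). *Timp4*, the TIMP most restricted to heart and fat, had 66.3, 72.5, 107 and 107 CPM in Ctrl and 26.0, 30.0, 50.3 and 64.5 CPM in *Csn8* AKO. All 4 *Csn8* AKO libraries lay below all 4 Ctrl libraries, but the difference missed the threshold (log2 fold change -1.05 ± 0.30 (SE), edgeR adjusted p = 0.0819, lower in 4 of 4), and it passed without *Csn8* AKO 4 (adjusted p = 0.0312). It also passed with DESeq2 (0.0118), limma voom (0.0255), library size alone (0.0198), a fit of all 18 libraries (0.0150) and without *Csn8* AKO 3 and 4 (0.0300), in a range over the alternatives of 0.0118 to 0.199.

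None of the 14 MMP genes tested in sWAT was called by edgeR, while 3 were higher at an unadjusted p under 0.05, and DESeq2 called 3 and limma voom 2, all higher. *Mmp14*, the membrane collagenase that activates pro-MMP2, had 65.2, 74.3, 85.1 and 94.6 CPM in Ctrl and 114, 87.0, 173 and 138 CPM in *Csn8* AKO of sWAT. *Csn8* AKO 1, 3 and 4 exceeded all Ctrl libraries and *Csn8* AKO 2 fell within the Ctrl range (log2 fold change 0.68 ± 0.21 (SE), edgeR adjusted p = 0.0961, higher in 4 of 4). *Mmp2* had 273, 294, 322 and 347 CPM in Ctrl and 482, 231, 565 and 412 CPM in *Csn8* AKO, again with *Csn8* AKO 2 alone below the Ctrl libraries (log2 fold change 0.45 ± 0.25 (SE), edgeR adjusted p = 0.352, higher in 3 of 4). With *Csn8* AKO 2 left out, adjusted p was 0.0181 for *Mmp14* and 0.0321 for *Mmp2*, both higher (ranges over the alternatives 0.0169 to 0.694 and 0.0321 to 0.964). *Mmp14* also had an adjusted p of 0.0464 with DESeq2, 0.0169 with limma voom and 0.0228 without both lymphocyte-marker libraries, and *Mmp2* of 0.0440 without both lymphocyte-marker libraries. The gelatinase *Mmp9*, typical of neutrophils and other myeloid cells, had 21.02 ± 3.45 CPM in Ctrl and 21.4 ± 9.86 CPM in *Csn8* AKO (SD, n = 4 each), with overlapping groups (log2 fold change 0.02 ± 0.34 (SE), edgeR adjusted p = 0.982, higher in 2 of 4). *Mmp3*, stromelysin 1, had 33.6 ± 11.2 CPM in Ctrl and 52.7 ± 21.1 CPM in *Csn8* AKO (SD, n = 4 each) (log2 fold change 0.65 ± 0.33 (SE), edgeR adjusted p = 0.307, higher in 3 of 4). The collagenase *Mmp13* did not pass the filter, with 7, 4, 0 and 0 reads in Ctrl and 4, 12, 6 and 0 in *Csn8* AKO. Over all 14 MMP genes the log2 fold changes ran from -0.58 to 0.99, with 12 above 0.

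The general sheddases *Adam10* and *Adam17* release Notch, TNF and many receptors from the cell surface. *Adam10* had 55.5 ± 1.67 CPM in Ctrl and 71.8 ± 10.3 CPM in *Csn8* AKO (SD, n = 4 each) in sWAT, without overlap (log2 fold change 0.37 ± 0.13 (SE), edgeR adjusted p = 0.128, higher in 4 of 4). *Adam10* had an adjusted p of 0.0449 with limma voom and 0.0236 in a fit of all 18 libraries (range over the alternatives 0.0236 to 0.969). *Adam17* had 50.6 ± 3.46 CPM in Ctrl and 65.5 ± 7.60 CPM in *Csn8* AKO (SD, n = 4 each) (log2 fold change 0.37 ± 0.12 (SE), edgeR adjusted p = 0.120, higher in 4 of 4). *Adam15*, found on endothelium and other cells, had 128 ± 20.9 CPM in Ctrl and 117 ± 24.8 CPM in *Csn8* AKO (SD, n = 4 each), with overlapping groups (log2 fold change -0.12 ± 0.18 (SE), edgeR adjusted p = 0.768, lower in 3 of 4). *Adam19*, which can shed neuregulins, had 43.1 ± 5.80 CPM in Ctrl and 57.1 ± 5.35 CPM in *Csn8* AKO (SD, n = 4 each) (log2 fold change 0.41 ± 0.13 (SE), edgeR adjusted p = 0.112, higher in 4 of 4). *Adam19* had an adjusted p of 0.0254 with limma voom and 0.0455 without both lymphocyte-marker libraries (range over the alternatives 0.0254 to 0.962). Of the 16 ADAMTS genes tested in sWAT none was called by edgeR, with 2 higher at an unadjusted p under 0.05, 0 called by DESeq2 and 1 called higher by limma voom. The aggrecanase *Adamts4* had 1.31, 1.97, 2.01 and 2.91 CPM in Ctrl and 1.25, 8.64, 2.76 and 3.96 CPM in *Csn8* AKO, and its log2 fold change of 1.02 ± 0.52 (SE, edgeR adjusted p = 0.311, above the Ctrl mean in 3 of 4) became 0.36 without *Csn8* AKO 2. The other aggrecanase, *Adamts5*, had 280.0 ± 108 CPM in Ctrl and 226 ± 77.6 CPM in *Csn8* AKO (SD, n = 4 each). Of the versican-cleaving enzymes, *Adamts1* had 60.5 ± 13.3 CPM in Ctrl and 67.5 ± 14.8 CPM in *Csn8* AKO (SD, n = 4 each) and *Adamts9* had 91.5 ± 20.1 CPM in Ctrl and 82.1 ± 30.3 CPM in *Csn8* AKO (SD, n = 4 each), and groups overlapped in all 3 of these genes. The procollagen N-proteinase *Adamts2*, which trims fibrillar procollagen, had 194 ± 19.9 CPM in Ctrl and 212 ± 51.4 CPM in *Csn8* AKO (SD, n = 4 each) (log2 fold change 0.13 ± 0.19 (SE), edgeR adjusted p = 0.773, higher in 3 of 4). *Adamts12* had 125 ± 26.7 CPM in Ctrl and 187 ± 37.1 CPM in *Csn8* AKO (SD, n = 4 each) (log2 fold change 0.58 ± 0.20 (SE), edgeR adjusted p = 0.138, higher in 4 of 4). Its edgeR adjusted p was 0.0344 without *Csn8* AKO 2, 0.0467 with limma voom and 0.0247 without both lymphocyte-marker libraries (range over the alternatives 0.0247 to 0.780).

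Reads of a pair of neighbouring sperm-type genes were few and went in opposite directions, and both were chosen for mention after their values were seen. *Adam5* had 10, 6, 6 and 6 reads in the 4 Ctrl libraries and 28, 18, 12 and 16 in the 4 *Csn8* AKO libraries of sWAT, all *Csn8* AKO above all Ctrl (log2 fold change 1.52 ± 0.36 (SE), edgeR adjusted p = 0.0400, higher in 4 of 4). Beside these 4 *Csn8* AKO libraries only Ctrl 1 of sWAT reached 10 reads of *Adam5*. It thus met the count rule through the group where it was high, and its call is a description, not a test of the members. *Adam5* was not called without 7 of 8 single libraries (log2 fold change 1.38 to 1.66), with library size alone, with no filter, in a fit of all 18 libraries and without *Csn8* AKO 3 and 4 (adjusted p 0.0228 to 0.354 over the alternatives). *Adam3* had 8, 17, 26 and 48 reads in Ctrl and 0 in each of the 4 *Csn8* AKO libraries, where a count of 0 allows up to 3 reads per library or 0.136 to 0.224 CPM, by counting error only. It did not pass the filter in sWAT, so edgeR within that tissue gave no test. *Adam3* was lower where an alternative kept it, with an adjusted p of 0.000715 with no filter, 4.02e-06 with DESeq2, 0.000327 in a fit of all 18 libraries and 0.00459 without both lymphocyte-marker libraries. The log2 fold changes of -6.96 with DESeq2 and -7.64 with no filter rest on counts of 0. With 1 library left out *Adam3* was kept in 5 of 8 fits, and adjusted p was 0.0123 without Ctrl 1, 0.0177 without *Csn8* AKO 2, 0.0488 without *Csn8* AKO 3 and 0.0264 without *Csn8* AKO 4 but 0.0501 without *Csn8* AKO 1. It was 0.0675 without *Csn8* AKO 3 and 4 (range over the alternatives 4.02e-06 to 0.0675). In BAT *Adam3* had 9, 14, 17, 26 and 23 reads in the 5 Ctrl libraries and 1, 0, 0, 3 and 2 in the 5 *Csn8* AKO libraries, and it was called lower (log2 fold change -3.47 ± 0.57 (SE), edgeR adjusted p = 0.000386, lower in 5 of 5). In both tissues only Ctrl libraries reached 10 reads of *Adam3*. It thus met the count rule through the group where it was high, and its call is a description, not a test of the members. *Adam3* at chr8:24677225-24725852 and *Adam5* at chr8:24727093-24824369 (GRCm38.p6) lie side by side, and *Adam5* in BAT, with 2, 0, 8, 2 and 6 reads in Ctrl and 2, 2, 2, 8 and 6 in *Csn8* AKO, did not pass the filter.

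**Figure D1:**
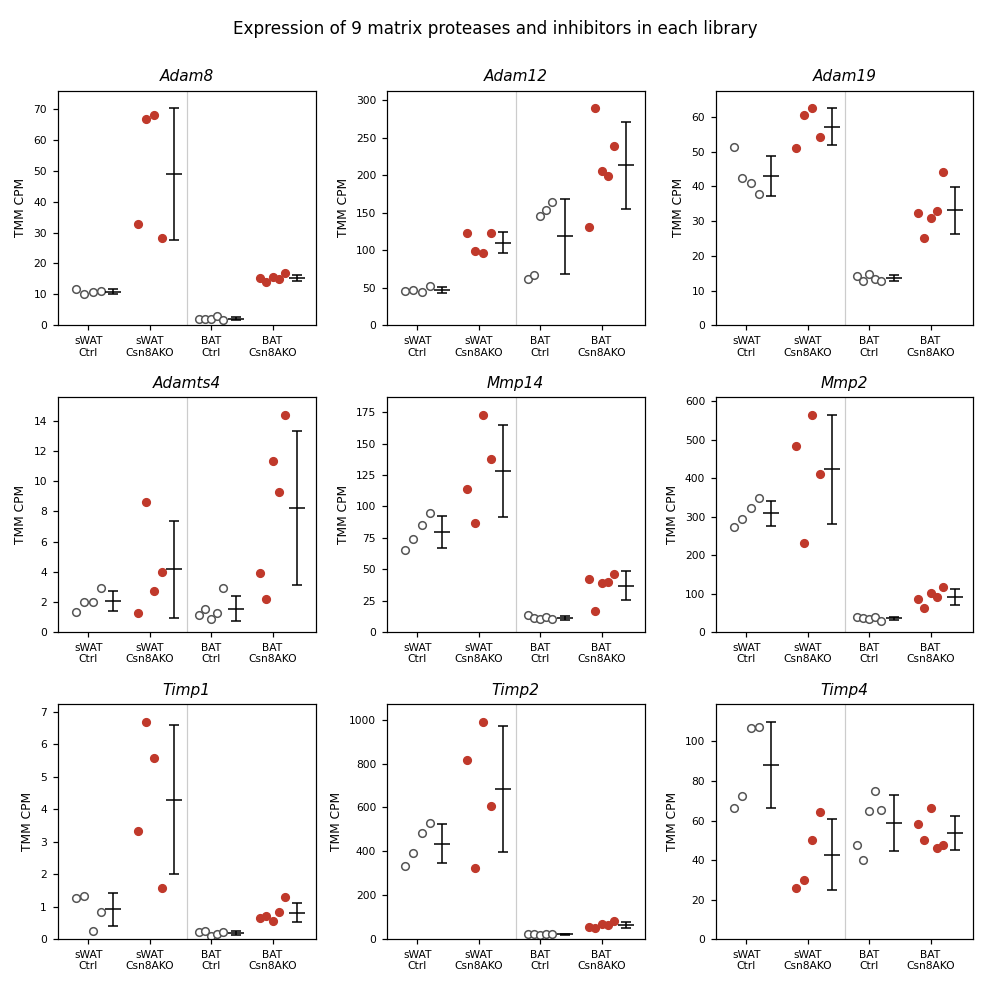
TMM-scaled CPM of 9 members in each library, for sWAT (4 libraries per genotype) and BAT (5 per genotype), each tissue scaled on its own. Open circles are Ctrl and filled circles *Csn8* AKO libraries, and bars give the mean ± SD. *Adam8* and *Timp1* of *Csn8* AKO libraries lie above all Ctrl libraries in both tissues, *Adam12* in sWAT, and *Mmp14*, *Mmp2*, *Timp2* and *Adam19* in BAT. *Timp4* lies below in sWAT.

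In BAT, members of all 4 families rose in *Csn8* AKO mice. *Adam8* rose by 2.82 ± 0.15 on the log2 scale (SE, n = 5 per genotype), the membrane collagenase *Mmp14* by 1.71 ± 0.23, the gelatinase *Mmp2* by 1.34 ± 0.14 and the aggrecanase *Adamts4* by 2.39 ± 0.53. The inhibitors *Timp1* and *Timp2* rose by 2.18 ± 0.35 and 1.58 ± 0.11, whereas *Timp3* and *Timp4* were not called. *Timp1* passed the filter on low counts in BAT through its *Csn8* AKO libraries, where it was high. By edgeR the members that fell were *Adamts3*, *Adamts6*, *Adam1a* and *Adam3*, the last of which met the count rule through Ctrl libraries alone.

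*Adam5*, *Adamts13*, *Adamts18* and *Mmp10* did not pass the filter in BAT. Of the 54 members tested, 26 were called higher, against 16.0% of 22345 genes tested, and 4 lower, against 15.8%. The 4 include *Adam3*, which met the count rule through Ctrl libraries alone. The 26 include *Timp1* and *Mmp27*, which passed the filter in BAT through their *Csn8* AKO libraries, where they were high. DESeq2 called 4 of these 54 lower and limma voom 5, with *Adam9* in addition. DESeq2 also called *Adamts13* lower, outside the 54 and named after its values were seen. It had 0.207, 0.322, 0.113, 0.443 and 0.270 CPM in Ctrl and 0.0337, 0.118, 0, 0.0547 and 0 CPM in *Csn8* AKO, with a log2 fold change of -2.73 by DESeq2. Adjusted p was 0.00461 with no filter, 0.00143 with DESeq2 and 0.0458 without *Csn8* AKO 1 and 5. At a log2 fold change of at least 1, 12 were higher against 6.85% of all genes, and 3 were lower by at least as much against 4.16%. Genotypes did not overlap in 19 of the 54, against 21.0% of all genes, with all *Csn8* AKO libraries above Ctrl in 16 and below in 3. The median log2 fold change was 0.57 over the members and 0.01 over all genes. Library size scaling alone moved the median of all genes to 0.14 and that of the members to 0.72, and it called 30 members higher and 3 lower. Without *Csn8* AKO 1 and 5, the libraries with skeletal muscle markers, 20 were called higher and 4 lower. Leaving out each library in turn gave 26 to 33 calls in all.

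The inhibitor *Timp2* had 21.6, 21.1, 20.1, 22.4 and 21.5 CPM in Ctrl and 55.1, 50.8, 69.7, 62.4 and 80.9 CPM in *Csn8* AKO of BAT. The Ctrl libraries were nearly equal and every *Csn8* AKO library was above the highest of them, with *Csn8* AKO 5 the top (log2 fold change 1.58 ± 0.11 (SE), edgeR adjusted p = 5.37e-07, higher in 5 of 5). *Timp1* had 0.207, 0.237, 0.0807, 0.148 and 0.216 CPM in Ctrl and 0.641, 0.7096, 0.550, 0.835 and 1.30 CPM in *Csn8* AKO, again without overlap but from few reads (log2 fold change 2.18 ± 0.35 (SE), edgeR adjusted p = 0.000336, higher in 5 of 5). The reads behind it numbered 8, 14, 5, 8 and 12 in Ctrl and 38, 18, 16, 61 and 39 in *Csn8* AKO. *Timp3* had 142, 176, 204, 239 and 182 CPM in Ctrl and 215, 193, 198, 189 and 188 CPM in *Csn8* AKO, with the *Csn8* AKO values inside the Ctrl range (log2 fold change 0.06 ± 0.12 (SE), edgeR adjusted p = 0.751, higher in 4 of 5). *Timp4* had 47.6, 40.1, 64.8, 74.9 and 65.5 CPM in Ctrl and 58.1, 50.03, 66.2, 46.3 and 47.7 CPM in *Csn8* AKO, with overlapping groups (log2 fold change -0.13 ± 0.16 (SE), edgeR adjusted p = 0.595, lower in 4 of 5). Each of *Timp1*, *Timp3* and *Timp4* lies inside a synapsin gene on the opposite strand (*Syn1*, *Syn3* and *Syn2*), and *Timp2* shares its strand with *Cep295nl*. Whether the counting used strand is not stated, so reads of such overlapping pairs cannot be told apart.

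*Mmp14* had 13.7, 11.0, 10.1, 11.7 and 10.2 CPM in Ctrl and 42.6, 17.0, 39.2, 40.1 and 46.3 CPM in *Csn8* AKO of BAT. *Csn8* AKO 2 was well below the other *Csn8* AKO libraries, yet all 5 were above Ctrl (log2 fold change 1.71 ± 0.23 (SE), edgeR adjusted p = 0.000175, higher in 5 of 5). *Mmp2*, its substrate, had 39.3, 36.9, 34.2, 40.1 and 29.6 CPM in Ctrl and 85.6, 61.8, 102, 91.7 and 116 CPM in *Csn8* AKO, with *Csn8* AKO 2 again the lowest and *Csn8* AKO 5 the highest of a group wholly above Ctrl (log2 fold change 1.34 ± 0.14 (SE), edgeR adjusted p = 1.98e-05, higher in 5 of 5). *Mmp9* had 1.92 ± 0.966 CPM in Ctrl and 1.52 ± 0.724 CPM in *Csn8* AKO (SD, n = 5 each) with overlapping groups (log2 fold change -0.30 ± 0.41 (SE), edgeR adjusted p = 0.617, lower in 4 of 5). *Mmp3* had 0.724, 0.847, 1.06, 0.480 and 0.0721 CPM in Ctrl and 1.91, 0.631, 2.03, 1.19 and 2.41 CPM in *Csn8* AKO, where 4 of the 5 *Csn8* AKO libraries exceeded the Ctrl mean and *Csn8* AKO 2 did not (log2 fold change 1.35 ± 0.50 (SE), edgeR adjusted p = 0.0602, higher in 4 of 5). *Mmp3* had an adjusted p of 0.0449 without Ctrl 3, 0.0362 without Ctrl 5 and 0.0292 without *Csn8* AKO 2. It was 0.0423 with library size alone, 0.0452 with a stricter filter, 0.0222 with DESeq2 and 0.0313 with limma voom (range over the alternatives 0.0222 to 0.266). *Mmp13* had 0.272 ± 0.142 CPM in Ctrl and 0.161 ± 0.167 CPM in *Csn8* AKO (SD, n = 5 each), from 16, 12, 27, 7 and 10 reads in Ctrl and 16, 10, 0, 8 and 1 in *Csn8* AKO (log2 fold change -0.74 ± 0.63 (SE), edgeR adjusted p = 0.408, lower in 4 of 5). Of 16 MMP genes tested 7 were called, all higher, where 16.0% of all genes were called higher and 15.8% lower. The other 5 beside *Mmp2* and *Mmp14* had log2 fold changes from 0.46 to 2.98. The top of that range was *Mmp27*, mentioned after its values were seen, with 6, 0, 6, 0 and 10 reads in Ctrl and 37, 12, 20, 58 and 23 in *Csn8* AKO (log2 fold change 2.98 ± 0.60 (SE), edgeR adjusted p = 0.00173, higher in 5 of 5). *Mmp27*, one of the 7, passed the filter on low counts in BAT through the group where it was high. Its call there is a description, not a test of the members.

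Among the ADAM proteases, *Adam8* had 2.04, 1.93, 1.90, 3.12 and 1.86 CPM in Ctrl and 15.2, 13.9, 15.6, 14.9 and 16.8 CPM in *Csn8* AKO of BAT. The *Csn8* AKO libraries were nearly equal, and Ctrl 4 was the highest of a low Ctrl group (log2 fold change 2.82 ± 0.15 (SE), edgeR adjusted p = 5.48e-08, higher in 5 of 5). *Adam19* had 14.2, 12.8, 14.7, 13.2 and 12.8 CPM in Ctrl and 32.4, 25.0, 31.0, 32.8 and 44.1 CPM in *Csn8* AKO, without overlap and with *Csn8* AKO 5 the highest (log2 fold change 1.29 ± 0.13 (SE), edgeR adjusted p = 5.69e-06, higher in 5 of 5). *Adam17* had 42.0, 50.02, 60.3, 62.1 and 56.2 CPM in Ctrl and 65.5, 89.1, 83.8, 81.4 and 83.9 CPM in *Csn8* AKO, where *Csn8* AKO 1 was only just above the highest Ctrl library (log2 fold change 0.58 ± 0.11 (SE), edgeR adjusted p = 0.00137, higher in 5 of 5). Its relative *Adam10* had 37.1 ± 1.58 CPM in Ctrl and 41.6 ± 2.32 CPM in *Csn8* AKO (SD, n = 5 each) (log2 fold change 0.17 ± 0.07 (SE), edgeR adjusted p = 0.0776, higher in 5 of 5). *Adam10* had an adjusted p of 0.0395 without *Csn8* AKO 2, 0.0489 with library size alone, 0.0366 with a stricter filter and 0.0488 with limma voom (range over the alternatives 0.0366 to 0.285). *Adam12* had 62.3, 66.4, 146, 153 and 164 CPM in Ctrl and 131, 289.6, 206, 199 and 239 CPM in *Csn8* AKO. Ctrl 1 and 2 and *Csn8* AKO 1 were the low libraries of their groups, and the ranges overlapped (log2 fold change 0.85 ± 0.32 (SE), edgeR adjusted p = 0.0741, higher in 5 of 5). It was called higher in several alternatives, with an adjusted p of 0.0473 with library size alone, 0.0485 with a stricter filter, 0.0107 with DESeq2, 0.0162 with limma voom and 0.0227 in a fit of all 18 libraries. Of the fits without 1 library only that without *Csn8* AKO 1 called *Adam12* (adjusted p = 0.0458). The range over the alternatives was 0.0107 to 0.170. *Adam15* rose from 51.3 ± 5.59 CPM in Ctrl to 74.7 ± 14.0 CPM in *Csn8* AKO (SD, n = 5 each), with *Csn8* AKO 2 inside the Ctrl range (log2 fold change 0.54 ± 0.12 (SE), edgeR adjusted p = 0.00388, higher in 5 of 5). *Adam23* had 14.3, 17.3, 11.8, 14.0 and 20.5 CPM in Ctrl and 29.7, 15.8, 30.7, 33.4 and 38.4 CPM in *Csn8* AKO, with *Csn8* AKO 2 alone inside the Ctrl range (log2 fold change 0.93 ± 0.21 (SE), edgeR adjusted p = 0.00646, higher in 5 of 5). Of the sperm-type fertilin genes, *Adam2* rose from 0.875 ± 0.374 CPM in Ctrl to 1.85 ± 0.602 CPM in *Csn8* AKO (SD, n = 5 each) (log2 fold change 1.09 ± 0.31 (SE), edgeR adjusted p = 0.0163, higher in 5 of 5). That call was lost in a fit of all 18 libraries (adjusted p = 0.0927) and without *Csn8* AKO 1 and 5 (0.131; range over the alternatives 0.00216 to 0.131). *Adam1a* fell from 5.18 ± 1.16 CPM in Ctrl to 3.71 ± 0.446 CPM in *Csn8* AKO (SD, n = 5 each) (log2 fold change -0.48 ± 0.17 (SE), edgeR adjusted p = 0.0440, lower in 5 of 5). *Adam1a* was not called without 8 of 10 single libraries (log2 fold change -0.51 to -0.41), with library size alone and without *Csn8* AKO 1 and 5 (adjusted p 0.00717 to 0.238 over the alternatives).

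Of 16 ADAMTS genes tested in BAT 10 were called higher and 2 lower, against 16.0% and 15.8% of all genes. The aggrecanase *Adamts4* had 1.16, 1.54, 0.871, 1.27 and 2.96 CPM in Ctrl and 3.91, 2.17, 11.3, 9.26 and 14.4 CPM in *Csn8* AKO. *Csn8* AKO 3, 4 and 5 were far above Ctrl and *Csn8* AKO 1 just above, while *Csn8* AKO 2 was inside the Ctrl range (log2 fold change 2.39 ± 0.53 (SE), edgeR adjusted p = 0.00683, higher in 5 of 5). *Adamts15* had 6.59, 6.88, 7.08, 7.42 and 2.54 CPM in Ctrl and 18.0, 9.86, 12.1, 13.8 and 25.1 CPM in *Csn8* AKO, where Ctrl 5 was the low library and the groups did not overlap (log2 fold change 1.37 ± 0.31 (SE), edgeR adjusted p = 0.00656, higher in 5 of 5). *Adamts20*, which cleaves versican in developing skin, had 1.32, 1.30, 2.44, 1.85 and 1.551 CPM in Ctrl and 3.54, 4.297, 4.57, 4.99 and 7.29 CPM in *Csn8* AKO, without overlap (log2 fold change 1.54 ± 0.23 (SE), edgeR adjusted p = 0.000161, higher in 5 of 5). *Adamts5* rose from 14.0 ± 2.50 CPM in Ctrl to 21.6 ± 5.04 CPM in *Csn8* AKO (SD, n = 5 each) (log2 fold change 0.63 ± 0.17 (SE), edgeR adjusted p = 0.0105, higher in 5 of 5). That call was lost in a fit of all 18 libraries (adjusted p = 0.0920) and without *Csn8* AKO 1 and 5 (0.0550; range over the alternatives 0.000686 to 0.0920). *Adamts1* had 38.1 ± 14.4 CPM in Ctrl and 63.4 ± 32.8 CPM in *Csn8* AKO (SD, n = 5 each), with overlapping groups (log2 fold change 0.73 ± 0.45 (SE), edgeR adjusted p = 0.256, higher in 4 of 5). *Adamts1* had an adjusted p of 0.0459 with limma voom (range over the alternatives 0.0459 to 0.500). *Adamts9* had 155 ± 39.8 CPM in Ctrl and 207 ± 54.9 CPM in *Csn8* AKO (SD, n = 5 each), also with overlap (log2 fold change 0.41 ± 0.21 (SE), edgeR adjusted p = 0.165, higher in 4 of 5). *Adamts9* had an adjusted p of 0.0427 without Ctrl 5 and 0.0296 without *Csn8* AKO 2 and 0.0253 with limma voom (range over the alternatives 0.0253 to 0.344).

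The 3 procollagen N-proteinases did not move together in BAT. *Adamts2* had 23.4, 20.8, 19.7, 22.7 and 19.5 CPM in Ctrl and 37.5, 30.8, 42.3, 41.9 and 51.1 CPM in *Csn8* AKO, without overlap (log2 fold change 0.94 ± 0.12 (SE), edgeR adjusted p = 4.41e-05, higher in 5 of 5). *Adamts14* had 3.02, 3.02, 1.98, 2.03 and 2.29 CPM in Ctrl and 5.31, 3.23, 6.56, 5.20 and 9.86 CPM in *Csn8* AKO, where *Csn8* AKO 2 was only just above Ctrl (log2 fold change 1.29 ± 0.25 (SE), edgeR adjusted p = 0.00147, higher in 5 of 5). *Adamts3*, which also activates the lymphatic growth factor VEGF-C, went the other way with 2.07, 2.17, 1.44, 2.55 and 2.04 CPM in Ctrl and 0.962, 1.14, 0.687, 0.930 and 0.936 CPM in *Csn8* AKO. All 5 *Csn8* AKO libraries lay below all 5 Ctrl libraries (log2 fold change -1.14 ± 0.20 (SE), edgeR adjusted p = 0.000680, lower in 5 of 5). *Adamts6*, an enzyme linked to fibrillin microfibrils, had 3.41, 3.78, 4.10, 4.74 and 6.33 CPM in Ctrl and 1.97, 2.33, 1.547, 1.75 and 1.40 CPM in *Csn8* AKO, also without overlap, with Ctrl 5 the highest (log2 fold change -1.31 ± 0.20 (SE), edgeR adjusted p = 0.000207, lower in 5 of 5). *Adamts12*, which degrades cartilage oligomeric matrix protein, rose from 35.8 ± 3.24 CPM in Ctrl to 62.3 ± 13.5 CPM in *Csn8* AKO (SD, n = 5 each) in all 5 *Csn8* AKO libraries (log2 fold change 0.80 ± 0.13 (SE), edgeR adjusted p = 0.000390, higher in 5 of 5). In sWAT *Adamts6* had 10.7, 5.67, 5.69 and 5.50 CPM in Ctrl and 3.61, 11.9, 3.10 and 4.49 CPM in *Csn8* AKO, high in the lymphocyte-marker libraries Ctrl 1 and *Csn8* AKO 2 (log2 fold change -0.25 ± 0.44 (SE), edgeR adjusted p = 0.809, lower in 3 of 4). The fold change on the log2 scale was -0.89 without *Csn8* AKO 2.

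**Figure D2:**
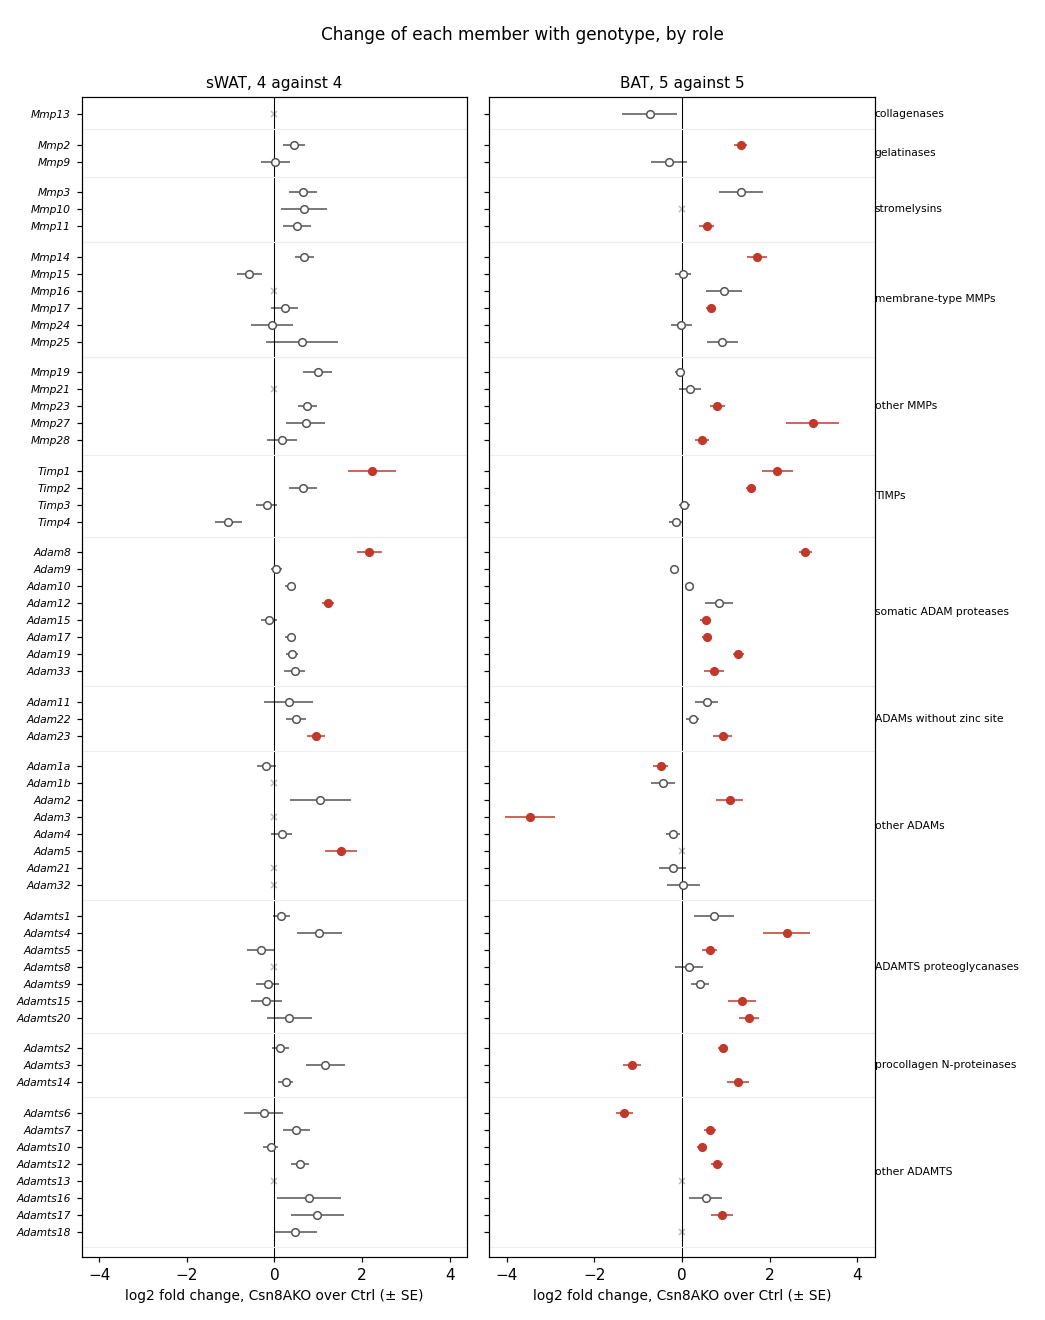
Log2 fold change ± SE of the 58 members by role, *Csn8* AKO over Ctrl, in sWAT and in BAT. Filled points passed an edgeR adjusted p of 0.05, open points did not, and crosses mark members that did not pass the filter on low counts. Filled points number 5 in sWAT, all above 0, and 30 in BAT, 26 above 0 and 4 below.

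Called higher in both tissues were 3 members, *Adam8*, *Adam23* and *Timp1*, of 46 tested in both, against 1.79% of 18288 genes tested in both. The 3 include *Timp1*, which passed the filter in BAT through its *Csn8* AKO libraries, where it was high. Whether a change differed between BAT and sWAT was tested as an interaction over the 18 libraries, in which 2 of 55 members were called, against 2.36% of 22509 genes, a share close to that background. The median difference was 0.24 over the members and 0.00 over all genes, and 0.51 and 0.21 with scaling by library size alone. With 1 library left out the members' median ran from 0.167, without BAT *Csn8* AKO 5, to 0.550, without sWAT *Csn8* AKO 2. In the latter fit the median of all genes was 0.028. Without both lymphocyte-marker libraries the medians were 0.495 and 0.014. *Adam19* rose in BAT, and its change there exceeded that in sWAT by 0.87 ± 0.18 on the log2 scale (SE, edgeR adjusted p = 0.0109), and this call was lost with library size alone (adjusted p = 0.0955; range over the alternatives 0.000320 to 0.0955). *Adamts3* differed by -2.31 ± 0.44 (SE, edgeR adjusted p = 0.00699): it fell in BAT, while in sWAT it had 0.362, 0.405, 0.651 and 0.623 CPM in Ctrl and 0.509, 1.58, 1.59 and 0.897 CPM in *Csn8* AKO (log2 fold change 1.16 ± 0.45 (SE), edgeR adjusted p = 0.176, higher in 3 of 4). *Adamts3* in sWAT had an adjusted p of 0.0384 in a fit of all 18 libraries (range over the alternatives 0.0384 to 0.600). The difference for *Adam8* was 0.64 ± 0.30 (edgeR adjusted p = 0.322), for *Mmp14* 1.01 ± 0.33 (0.127), for *Mmp2* 0.87 ± 0.29 (0.140) and for *Timp2* 0.91 ± 0.33 (0.177), so that edgeR did not call a larger change of these in BAT. *Mmp14* had an adjusted p of 0.0424 with library size alone and 0.0393 with limma voom for this difference and *Mmp2* of 0.0453 with limma voom (ranges over the alternatives 0.00945 to 0.250 and 0.0453 to 0.249). Without BAT *Csn8* AKO 2, 5 members were called, with *Mmp14* at an adjusted p of 0.00945, *Adamts2* at 0.0366 and *Adamts14* at 0.0348 (ranges over the alternatives 0.00945 to 0.250, 0.0204 to 0.182 and 0.0348 to 0.278). *Adamts2* also had an adjusted p of 0.0424 with library size alone, 0.0290 with DESeq2, 0.0204 with limma voom and 0.0319 without both lymphocyte-marker libraries. *Mmp27*, mentioned after its values were seen, had a difference of 2.24 ± 0.79 (SE, edgeR adjusted p = 0.163), with an adjusted p of 0.0328 with DESeq2 and 0.0414 with limma voom (range over the alternatives 0.0328 to 0.318). Differences of 3 more members passed in 1 alternative each. They were *Timp4* (0.0245 with library size alone), *Adamts5* (0.0420 with library size alone) and *Adamts15* (0.0327 with DESeq2), with ranges over the alternatives of 0.0245 to 0.369, 0.0420 to 0.443 and 0.0327 to 0.330.

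Genes that work with these proteases were read from 9 lists. Their counts stand against 2.30% of all genes called higher and 3.00% lower in sWAT, and 16.0% and 15.8% in BAT. Of further metalloproteinase inhibitors and ADAMTS-like proteins, 7 higher and 1 lower of 9 tested were called in BAT. The ADAMTS-like protein *Adamtsl2* rose from 0.894 ± 0.250 CPM in Ctrl to 3.15 ± 0.892 CPM in *Csn8* AKO (SD, n = 5 each) (log2 fold change 1.80 ± 0.24 (SE), edgeR adjusted p = 8.07e-05, higher in 5 of 5). Papilin (*Papln*) rose from 12.2 ± 1.78 CPM in Ctrl to 21.2 ± 1.57 CPM in *Csn8* AKO (SD, n = 5 each) (log2 fold change 0.80 ± 0.11 (SE), edgeR adjusted p = 8.52e-05, higher in 5 of 5). *Adamtsl3*, by contrast, had 59.1, 51.1, 39.1, 45.0 and 47.6 CPM in Ctrl and 21.8, 15.3, 22.6, 22.6 and 27.3 CPM in *Csn8* AKO, all *Csn8* AKO libraries below all Ctrl (log2 fold change -1.14 ± 0.14 (SE), edgeR adjusted p = 4.73e-05, lower in 5 of 5). None of the 10 tested in sWAT was called by edgeR, with 3 higher and 1 lower at an unadjusted p under 0.05, and DESeq2 and limma voom each called 1, higher.

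The plasminogen system, whose plasmin activates several pro-MMPs, had 1 higher and 0 lower of 9 tested called in sWAT and 3 higher and 1 lower of 9 in BAT. DESeq2 and limma voom each called 2 higher in sWAT, with *Plat* beside *Plaur*, and 2 lower in BAT, with *Anxa2* beside *Plgrkt*. The urokinase receptor *Plaur* had 4.75, 4.25, 4.74 and 4.93 CPM in Ctrl and 6.81, 17.9, 16.5 and 9.80 CPM in *Csn8* AKO of sWAT, without overlap (log2 fold change 1.45 ± 0.29 (SE), edgeR adjusted p = 0.0218, higher in 4 of 4). *Plaur* was not called without 4 of 8 single libraries (log2 fold change 1.29 to 1.48), with library size alone and without *Csn8* AKO 3 and 4 (adjusted p 0.000186 to 0.0966 over the alternatives). In BAT *Plaur* rose by 1.34 ± 0.22 on the log2 scale, the activator *Plat* by 0.80 ± 0.16 and the inhibitor *Serpine2* by 0.82 ± 0.18, each above the Ctrl mean in all 5 *Csn8* AKO libraries (edgeR adjusted p = 0.000329, 0.00163 and 0.00384). For *Serpine2* it was 0.0539 in a fit of all 18 libraries (range over the alternatives 0.000145 to 0.0539). The lower one was the plasminogen receptor *Plgrkt*, chosen after its values were seen (log2 fold change -0.54 ± 0.16 (SE), edgeR adjusted p = 0.0228, lower in 5 of 5). *Plgrkt* was not called without 4 of 10 single libraries (log2 fold change -0.51 to -0.46) and with library size alone (adjusted p 0.000455 to 0.0654 over the alternatives).

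Procollagen C-proteinases and their enhancers trim the other end of the procollagen that *Adamts2* cuts, and 5 higher and 0 lower of 7 tested were called in BAT. The enzyme *Bmp1* had 29.8, 28.2, 27.6, 30.2 and 29.4 CPM in Ctrl and 59.3, 45.6, 52.7, 54.4 and 63.8 CPM in *Csn8* AKO of BAT, without overlap (log2 fold change 0.93 ± 0.09 (SE), edgeR adjusted p = 4.96e-06, higher in 5 of 5). Its enhancer *Pcolce* rose by 1.16 ± 0.13 and the matrix protein *Thbs2* by 1.47 ± 0.13, in all 5 *Csn8* AKO libraries (edgeR adjusted p = 1.62e-05 and 3.54e-06). *Pcolce2* (0.88 ± 0.16) and *Fbln1* (1.30 ± 0.18) were named after their values were seen (edgeR adjusted p = 0.000881 and 0.000117, in all 5). In sWAT 0 of 7 were called by edgeR, with 5 higher at an unadjusted p under 0.05 and 3 called higher by DESeq2 and by limma voom. Hyalectans, link proteins and hyaluronan genes, which hold substrates of the ADAMTS proteoglycanases, had 2 higher and 0 lower of 7 tested called in sWAT and 4 higher and 1 lower of 9 in BAT. Versican (*Vcan*) had 40.2, 47.7, 61.5 and 56.3 CPM in Ctrl and 137, 138, 108 and 65.0 CPM in *Csn8* AKO of sWAT, without overlap (log2 fold change 1.13 ± 0.24 (SE), edgeR adjusted p = 0.0270, higher in 4 of 4). *Vcan* was not called without 6 of 8 single libraries (log2 fold change 1.01 to 1.21), with library size alone and without both lymphocyte-marker libraries (adjusted p 0.000498 to 0.133 over the alternatives). In BAT it rose by 1.40 ± 0.22 in all 5 *Csn8* AKO libraries (edgeR adjusted p = 0.000317). The hyaluronan receptor *Cd44* had 45.4, 33.1, 35.4 and 29.8 CPM in Ctrl and 81.4, 134, 80.9 and 75.5 CPM in *Csn8* AKO of sWAT, with *Csn8* AKO 2 the highest (log2 fold change 1.37 ± 0.21 (SE), edgeR adjusted p = 0.00690, higher in 4 of 4). In BAT it rose by 2.34 ± 0.18 in all 5 (edgeR adjusted p = 1.64e-06). The link protein *Hapln4* fell in BAT, with 3.75, 3.54, 6.02, 4.21 and 5.53 CPM in Ctrl and 0.574, 1.70, 1.89, 0.602 and 1.30 CPM in *Csn8* AKO (log2 fold change -1.99 ± 0.33 (SE), edgeR adjusted p = 0.000470, lower in 5 of 5). Named after their values were seen, aggrecan (*Acan*; log2 fold change 1.55 ± 0.37 (SE), edgeR adjusted p = 0.00518, higher in 5 of 5) and the hyaluronan synthase *Has1* (log2 fold change 0.86 ± 0.30 (SE), edgeR adjusted p = 0.0411, higher in 4 of 5) were the other 2 higher in BAT. *Acan* was not called in a fit of all 18 libraries (adjusted p 0.000697 to 0.0605 over the alternatives). *Has1* was not called without 8 of 10 single libraries (log2 fold change 0.68 to 0.89), in a fit of all 18 libraries and without *Csn8* AKO 1 and 5 (adjusted p 0.00599 to 0.199 over the alternatives).

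Regulators of ADAM10 and ADAM17 had 3 higher and 2 lower of 13 tested called in BAT, against 16.0% and 15.8% of all genes. The inactive rhomboid *Rhbdf1* rose by 0.44 ± 0.10 and the tetraspanin *Tspan5* by 0.43 ± 0.13, both in all 5 *Csn8* AKO libraries (edgeR adjusted p = 0.00398 and 0.0171). The tetraspanin *Tspan14* had 71.7, 73.1, 71.7, 74.4 and 68.5 CPM in Ctrl and 63.7, 52.4, 51.6, 53.6 and 55.4 CPM in *Csn8* AKO, all *Csn8* AKO libraries below Ctrl (log2 fold change -0.38 ± 0.07 (SE), edgeR adjusted p = 0.00142, lower in 5 of 5). That call was lost with library size alone (adjusted p = 0.149; range over the alternatives 1.34e-05 to 0.149). Named after their values were seen, *Rhbdf2* rose (log2 fold change 0.29 ± 0.09 (SE), edgeR adjusted p = 0.0185, higher in 5 of 5) and the convertase *Pcsk6* fell (log2 fold change -0.44 ± 0.15 (SE), edgeR adjusted p = 0.0388, lower in 5 of 5). *Rhbdf2* was not called without 2 of 10 single libraries (log2 fold change 0.25 to 0.27), with no filter, in a fit of all 18 libraries and without *Csn8* AKO 1 and 5 (adjusted p 0.00419 to 0.382 over the alternatives). *Pcsk6* was not called without 7 of 10 single libraries (log2 fold change -0.46 to -0.34), with library size alone, with no filter, in a fit of all 18 libraries and without *Csn8* AKO 1 and 5 (adjusted p 0.00523 to 0.216 over the alternatives). In sWAT 0 of 12 were called by edgeR, with 1 lower at an unadjusted p under 0.05 and 0 by DESeq2 and limma voom.

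Ligands and receptors that these sheddases release had 11 higher and 2 lower of 18 tested called in BAT and 2 higher and 0 lower of 18 in sWAT. In sWAT DESeq2 called 3 and limma voom 4 higher, where *Axl* and *Csf1r* were the ones that edgeR did not call. The myeloid receptor *Trem2* had 0.155, 0.186, 0.177, 0.517 and 0.108 CPM in Ctrl and 5.68, 4.42, 4.02, 5.79 and 5.45 CPM in *Csn8* AKO of BAT, without overlap (log2 fold change 4.45 ± 0.32 (SE), edgeR adjusted p = 5.51e-07, higher in 5 of 5). In sWAT it had 2.17, 5.11, 5.57 and 4.41 CPM in Ctrl and 27.5, 19.9, 44.1 and 15.3 CPM in *Csn8* AKO, again without overlap (log2 fold change 2.63 ± 0.39 (SE), edgeR adjusted p = 0.00700, higher in 4 of 4). The TNF receptor *Tnfrsf1b* rose by 0.67 ± 0.16 in all 4 *Csn8* AKO libraries of sWAT (edgeR adjusted p = 0.0364). *Tnfrsf1b* was not called without 5 of 8 single libraries (log2 fold change 0.57 to 0.73), with library size alone and without *Csn8* AKO 3 and 4 (adjusted p 0.00337 to 0.636 over the alternatives). In BAT the adhesion molecule *Vcam1* and the macrophage growth factor receptor *Csf1r* rose by 1.69 ± 0.12 and 1.07 ± 0.11 in all 5 *Csn8* AKO libraries (edgeR adjusted p = 5.51e-07 and 8.80e-06). Those lower in BAT, named after their values were seen, were the EGF receptor ligand *Tgfa* (log2 fold change -0.68 ± 0.21 (SE), edgeR adjusted p = 0.0224, lower in 5 of 5) and the preadipocyte protein *Dlk1* (log2 fold change -0.86 ± 0.26 (SE), edgeR adjusted p = 0.0226, lower in 5 of 5). *Tgfa* was not called without 5 of 10 single libraries (log2 fold change -0.64 to -0.58) and without *Csn8* AKO 1 and 5 (adjusted p 0.00467 to 0.122 over the alternatives). *Dlk1* was not called without 2 of 10 single libraries (log2 fold change -0.85 to -0.81), with library size alone and in a fit of all 18 libraries (adjusted p 0.00235 to 0.113 over the alternatives). Membrane peptidases had 1 higher and 0 lower of 7 tested called in sWAT and 4 higher and 1 lower of 7 in BAT. In sWAT DESeq2 called 3 and limma voom 4 higher. Aminopeptidase N (*Anpep*) had 62.0, 73.0, 78.9 and 81.9 CPM in Ctrl and 158, 95.6, 204 and 127 CPM in *Csn8* AKO of sWAT, without overlap (log2 fold change 0.98 ± 0.22 (SE), edgeR adjusted p = 0.0318, higher in 4 of 4). *Anpep* was not called without 6 of 8 single libraries (log2 fold change 0.77 to 1.04), with library size alone and without *Csn8* AKO 3 and 4 (adjusted p 0.00154 to 0.212 over the alternatives). In BAT *Anpep* rose by 2.01 ± 0.12 and *Enpep* by 0.88 ± 0.15 in all 5 *Csn8* AKO libraries, as did *Fap* (0.78 ± 0.18) and *Dpp4* (0.72 ± 0.16), the last pair named after their values were seen (edgeR adjusted p = 1.38e-07, 0.000714, 0.00491 and 0.00332). Neprilysin (*Mme*) fell, with all *Csn8* AKO libraries below all Ctrl (log2 fold change -0.87 ± 0.13 (SE), edgeR adjusted p = 0.000150, lower in 5 of 5).

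Lysosomal cathepsins, legumain and cystatins had 5 higher and 0 lower of 17 tested called in sWAT and 10 higher and 1 lower of 19 in BAT. In sWAT DESeq2 called 5 and limma voom 9 higher. Cathepsin S (*Ctss*), an elastin-cutting enzyme of myeloid cells, had 72.3, 41.7, 54.5 and 52.4 CPM in Ctrl and 199, 177, 173 and 125 CPM in *Csn8* AKO of sWAT, without overlap (log2 fold change 1.61 ± 0.20 (SE), edgeR adjusted p = 0.00285, higher in 4 of 4). In BAT it had 5.61, 4.54, 4.07, 5.66 and 4.90 CPM in Ctrl and 43.9, 35.4, 52.0, 42.4 and 55.5 CPM in *Csn8* AKO, also without overlap (log2 fold change 3.21 ± 0.14 (SE), edgeR adjusted p = 6.90e-09, higher in 5 of 5). Legumain (*Lgmn*) rose by 1.15 ± 0.17 in all 4 *Csn8* AKO libraries of sWAT (edgeR adjusted p = 0.00648; 0.0744 with library size alone; range over the alternatives 5.89e-07 to 0.0744) and by 0.72 ± 0.07 in all 5 of BAT (edgeR adjusted p = 4.96e-06). *Ctsh* rose by 1.56 ± 0.15 in all 5 of BAT and by 0.77 ± 0.17 in all 4 of sWAT (edgeR adjusted p = 4.96e-06 and 0.0345). *Ctsh* was not called without 6 of 8 single libraries (log2 fold change 0.62 to 0.82), with library size alone and without *Csn8* AKO 3 and 4 (adjusted p 0.00313 to 0.495 over the alternatives). Named after their values were seen, *Ctsc* (0.65 ± 0.16) and *Cstb* (0.81 ± 0.19) were the other 2 higher in sWAT, in all 4 *Csn8* AKO libraries (edgeR adjusted p = 0.0473 and 0.0351). Cystatin C (*Cst3*) was the lower one in BAT (log2 fold change -0.39 ± 0.10 (SE), edgeR adjusted p = 0.0110, lower in 5 of 5). *Ctsc* was not called without 6 of 8 single libraries (log2 fold change 0.52 to 0.71), with library size alone, with no filter and without *Csn8* AKO 3 and 4 (adjusted p 0.00696 to 0.617 over the alternatives). *Cstb* was not called without 7 of 8 single libraries (log2 fold change 0.74 to 0.90), with library size alone and without *Csn8* AKO 3 and 4 (adjusted p 0.00298 to 0.490 over the alternatives). *Cst3* was not called with library size alone, in a fit of all 18 libraries and without *Csn8* AKO 1 and 5 (adjusted p 0.00185 to 0.0665 over the alternatives).

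Neutrophil and mast cell serine proteases, with partner enzymes and inhibitors, had 6 higher and 0 lower of 8 tested called in BAT, where 1 was lower at an unadjusted p under 0.05 by edgeR and called lower by DESeq2 and limma voom. Limma voom called 7 of the 8 higher, and DESeq2 also called *Mpo* higher, outside the 8. The mast cell chymase *Mcpt4* had 0.957, 0.373, 0.581, 0.646 and 0.559 CPM in Ctrl and 5.65, 3.15, 5.09, 4.27 and 7.29 CPM in *Csn8* AKO of BAT, without overlap (log2 fold change 3.05 ± 0.27 (SE), edgeR adjusted p = 2.86e-06, higher in 5 of 5). The tryptase *Tpsb2* and the carboxypeptidase *Cpa3* rose by 2.85 ± 0.29 and 2.57 ± 0.23 in all 5 (edgeR adjusted p = 1.53e-05 and 3.63e-06). In sWAT 0 were called higher and 1 lower of 9 tested, while 5 were higher at an unadjusted p under 0.05, and DESeq2 called 5 and limma voom 4 higher. The lower one was the neutrophil protease *Prtn3*, with 11.2, 10.1, 17.3 and 15.7 CPM in Ctrl and 2.31, 2.40, 4.41 and 5.24 CPM in *Csn8* AKO of sWAT, without overlap (log2 fold change -1.93 ± 0.31 (SE), edgeR adjusted p = 0.00864, lower in 4 of 4). Summed neutrophil markers, which do not include *Prtn3*, went the other way in sWAT, at 8.20 to 10.0 CPM in Ctrl and 14.5 to 30.1 CPM in *Csn8* AKO.

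Markers of several other cell types were called too. Calls are by edgeR unless another tool is named, and of all genes 2.30% were called higher and 3.00% lower in sWAT, and 16.0% and 15.8% in BAT. Of 11 macrophage markers 7 were called higher in sWAT and 11 in BAT. Their summed CPM were 1162, 1156, 1375 and 1561 in Ctrl and 3268, 1895, 3086 and 2193 in *Csn8* AKO of sWAT. In BAT they were 163, 146, 123, 169 and 135 in Ctrl and 477, 400.4, 492, 443 and 566 in *Csn8* AKO of BAT, with *Lyz2* the most abundant and no marker at 0. Groups did not overlap in either tissue (exact two-sided permutation p = 0.0286 in sWAT and 0.00794 in BAT, the smallest these group sizes give, Benjamini-Hochberg adjusted p = 0.0987 and 0.0987 over 38 library measures). Fibroblast and progenitor markers, with *Col3a1* the most abundant and none at 0, had 1 of 10 called higher in sWAT and 10 of 10 in BAT. In sWAT 7 were higher at an unadjusted p under 0.05, and DESeq2 called 3 and limma voom 7 higher, with all 10 log2 fold changes above 0 (median 0.80). Their summed CPM were 9914, 11147, 10291 and 10817 in Ctrl and 17875, 10488, 17754 and 15009.7 in *Csn8* AKO of sWAT. There *Csn8* AKO 2 was the low library, as for *Mmp2* and *Timp2*. In BAT they were 1868, 1648, 1489.8, 1409 and 1105 in Ctrl and 3575, 2827, 3549, 3239 and 4836 in *Csn8* AKO of BAT, without overlap (exact permutation p = 0.0857 and 0.00794, adjusted 0.184 and 0.0987). Adipocyte markers, *Cfd* the most abundant in sWAT and *Fabp4* in BAT, had 4 of 10 called lower in sWAT, against 3.00% of all genes, and 2 of 10 in BAT, against 15.8%. In sWAT DESeq2 called 6 and limma voom 7 lower. They summed to 22699, 28877, 29219.6 and 29487 in Ctrl and 14378, 7551, 14875 and 18179 in *Csn8* AKO of sWAT. In BAT they summed to 13792 to 16486 CPM in Ctrl and 13204 to 15602 CPM in *Csn8* AKO. Neutrophil markers, *Csf3r* the most abundant and *Ly6g* at 0 in every sWAT library, summed to 10.0, 8.20, 9.12 and 9.87 in Ctrl and 16.1, 30.1, 14.5 and 14.5 in *Csn8* AKO of sWAT, without overlap, with 1 of 4 tested, *Csf3r*, called higher, and 2 by DESeq2 and limma voom. In BAT their sums were 2.39 to 4.00 CPM in Ctrl and 3.11 to 5.84 CPM in *Csn8* AKO, with overlap. Of 3 tested there *Csf3r* was called higher, and DESeq2 and limma voom called *Elane* lower. DESeq2 also called *Mpo*, *Retnlg* and *S100a8* higher, outside the 3 tested. T cell markers, *Cd4* the most abundant and none at 0, summed to 4.52, 3.13, 3.19, 3.56 and 4.72 in Ctrl and 9.45, 7.02, 9.76, 9.23 and 13.0 in *Csn8* AKO of BAT, without overlap, with 4 of 8, *Cd3e*, *Cd4*, *Lck* and *Cd2*, called higher. In sWAT 0 of 8 were called by any of the 3 tools, with 0 at an unadjusted p under 0.05. Schwann cell markers, *Mbp* the most abundant and none at 0, had 5 of 5 called higher in BAT, with sums of 48.1 to 63.2 CPM in Ctrl and 59.6 to 106 CPM in *Csn8* AKO. In sWAT edgeR called 0 of 5, with 3 higher at an unadjusted p under 0.05, and DESeq2 called 1 and limma voom 0. Their sums in sWAT were 92.2, 97.9, 88.4 and 97.4 in Ctrl and 103, 151, 217 and 106 in *Csn8* AKO, without overlap (exact permutation p = 0.0286, adjusted 0.0987). Mast cell markers, *Kit* the most abundant in BAT and *Tpsb2* in sWAT, none at 0 throughout, had 4 of 5 tested called higher in BAT, with sums of 19.1 to 59.5 and 29.5 to 73.6 CPM. In sWAT edgeR called 0 of 7, with 4 higher at an unadjusted p under 0.05, and DESeq2 and limma voom each called 4 higher. All 7 log2 fold changes were above 0 (median 1.16). The sums there were 60.7, 66.8, 65.9 and 91.1 in Ctrl and 233, 86.0, 179 and 97.9 in *Csn8* AKO, with *Csn8* AKO 2 alone inside the Ctrl range (exact permutation p = 0.0571, adjusted 0.145).

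Lipid-associated macrophage markers had 6 of 8 called higher in sWAT and 6 of 8 in BAT, with median log2 fold changes of 1.55 and 2.10. Their sums are nearly all *Lpl*, which was not called in either tissue, and they overlapped in both. In sWAT they were 3976 to 7951 and 2984 to 6409 CPM, and in BAT 2984 to 5299.5 and 4517 to 7833 CPM. Brown adipocyte markers, *Kcnk3* the most abundant in sWAT and none at 0 throughout, had 3 of 6 tested called lower in sWAT, *Cidea*, *Cox8b* and *Kcnk3*. DESeq2 and limma voom each called 4 lower there, with *Ppargc1a* in addition, and limma voom called *Elovl3* higher. The marker sums were 107, 199.9, 101.4 and 127 in Ctrl and 36.5, 19.6, 20.3 and 40.5 in *Csn8* AKO of sWAT, all *Csn8* AKO below all Ctrl (exact permutation p = 0.0286, adjusted 0.0987). In BAT 1 of 8, *Elovl3*, was called higher, DESeq2 and limma voom each called *Cidea* and *Cox8b* lower, limma voom called *Dio2* and *Ppargc1a* higher as well, and the sums overlapped. Smooth muscle and pericyte markers, *Rgs5* the most abundant and none at 0, had 5 of 7 called higher in BAT, *Myh11*, *Acta2*, *Cnn1*, *Pdgfrb* and *Notch3*, and 1 lower in sWAT, *Rgs5*. They summed to 638 to 773 and 746 to 1018 CPM in BAT, with *Csn8* AKO 2 alone inside the Ctrl range. In sWAT the sums overlapped. Proliferation markers, *Mki67* the most abundant and none at 0, had 4 of 6 called higher in BAT, *Mki67*, *Top2a*, *Birc5* and *Bub1*, and 1 in sWAT, *Bub1*. In sWAT all 6 were higher at an unadjusted p under 0.05, and DESeq2 called 5 and limma voom 6 higher. Sums of 7.84 to 21.1 and 20.0 to 54.5 CPM in BAT overlapped only through *Csn8* AKO 4. In sWAT they were 22.4 to 34.4 and 30.7 to 80.9 CPM, where *Csn8* AKO 4 alone was inside the Ctrl range. Endothelial markers, *Cdh5* the most abundant and none at 0, had 3 of 8 called higher in BAT, *Pecam1*, *Egfl7* and *Emcn*, with 2 by DESeq2 and 4 by limma voom. Their sums overlapped, at 798 to 1039.6 CPM in Ctrl and 849 to 1187 CPM in *Csn8* AKO. In sWAT 0 of 8 were called by edgeR, 1 was lower at an unadjusted p under 0.05, and DESeq2 called 1 lower and limma voom 0. Cartilage markers, *Sox9* the most abundant in BAT, had 2 of 4 tested called higher in BAT, *Acan* and *Comp*, by each of the 3 tools. The sums overlapped, at 1.71 to 3.36 and 2.65 to 5.08 CPM, and in sWAT 0 of 2 tested were called by any tool, with 0 at an unadjusted p under 0.05. Skeletal muscle markers had 2 of 4 tested called higher in BAT, *Acta1* and *Tnnt3*, with 3 by DESeq2 and 0 by limma voom, and of 6 B cell markers tested there *Cd79a* was called lower. Outside the 4 skeletal muscle markers tested, DESeq2 also called *Ckm*, *Myh1*, *Myh4* and *Tnni2* higher. The part of any of these cell types in the members' changes was not tested, and in bulk tissue fewer cells of a type and less RNA per cell cannot be told apart.

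Some members lie in tandem, which the choice by name did not use. Of the 78 matching genes 35 lie in 11 clusters with gaps of at most 500000 bases. *Mmp13*, *Mmp3*, *Mmp10* and *Mmp27* are the 4 members of a cluster of 9 matching genes at chr9:7272514-7699585 (GRCm38.p6), and the other 5 did not pass the count rule. *Adamts1* and *Adamts5* lie together at chr16:85793827-85901828. *Adam3*, *Adam5*, *Adam32* and *Adam9* are the 4 members of a cluster of 5 matching genes at chr8:24602246-25016927, where *Adam18* did not pass the count rule.

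Promoters from RefSeq (GRCm38.p6, 250 bases before to 50 after the gene start) were found for 36 members, in 39 entries, and were searched on both strands for TGANTCA, a form of the AP-1 motif known from collagenase and stromelysin genes. The motif reads the same on both strands. It was in 5 of the 39 entries (12.8%), against 2565 of all 32851 promoters (7.81%). The holders were *Mmp3*, *Mmp10*, *Mmp13*, *Adam1b* and 1 of 3 entries of *Adam19*. Of 20 entries of members called higher in BAT 1 held it. The last 100 bases before the start of the 3 neighbouring chromosome 9 genes, all on the plus strand and at low levels in BAT, are shown with the motif in capitals, from chr9:7445722-7445821 (*Mmp3*), chr9:7502242-7502341 (*Mmp10*) and chr9:7272414-7272513 (*Mmp13*). Its first base stood 46, 63 and 35 bases before the start.
Mmp3: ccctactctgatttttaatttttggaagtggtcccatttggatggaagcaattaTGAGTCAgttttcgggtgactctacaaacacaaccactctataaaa
Mmp10: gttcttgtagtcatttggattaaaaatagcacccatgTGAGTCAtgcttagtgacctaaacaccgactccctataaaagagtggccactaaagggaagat
Mmp13: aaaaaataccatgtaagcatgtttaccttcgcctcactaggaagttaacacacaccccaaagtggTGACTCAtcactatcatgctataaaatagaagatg

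For *Adam8* and *Timp1*, called higher in both tissues with the largest fold changes of the 3 such members, the 250 bases before the start are shown, from chr7:139992563-139992812 (minus strand) and chrX:20869916-20870165 (plus strand). Neither holds TGANTCA, which says only that these letters are not in this window.
Adam8: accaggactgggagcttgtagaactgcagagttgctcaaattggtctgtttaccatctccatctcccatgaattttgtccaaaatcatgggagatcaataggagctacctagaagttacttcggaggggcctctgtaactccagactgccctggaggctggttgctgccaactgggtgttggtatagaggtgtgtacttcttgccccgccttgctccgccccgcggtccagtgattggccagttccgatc
Timp1: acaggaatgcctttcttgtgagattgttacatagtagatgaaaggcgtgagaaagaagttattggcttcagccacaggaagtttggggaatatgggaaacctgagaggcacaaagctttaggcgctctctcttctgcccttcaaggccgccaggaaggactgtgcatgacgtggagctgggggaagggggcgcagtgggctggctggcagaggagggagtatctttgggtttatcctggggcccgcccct

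Members without a promoter entry were *Adam11*, *Adam12*, *Adam2*, *Adam3*, *Adam32*, *Adam33*, *Adam4*, *Adam5*, *Adam9*, *Adamts10*, *Adamts15*, *Adamts16*, *Adamts4*, *Adamts5*, *Adamts6*, *Adamts7*, *Adamts8*, *Mmp16*, *Mmp17*, *Mmp19*, *Mmp2* and *Mmp9*.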

How the data were processed

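Per the labels, gene-level values of 18 libraries were used, 4 per genotype from sWAT and 5 per genotype from BAT. Each was taken as a separate animal. The authors removed ribosomal RNA from total RNA, sequenced paired ends, aligned reads with STAR (2.7.9a) to the Ensembl release 101 primary assembly and counted uniquely aligned, unambiguous reads per gene with featureCounts (2.0.3). The strand setting is not given in the sources used here. The deposited count is a raw number of reads per gene. The deposited CPM are those counts scaled to library size and the deposited FPKM are scaled to gene length too. Both were not used further. The deposited TPM is scaled by gene length with ribosomal RNA genes included, and served only to compare levels between genes.

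Counts were fitted over all genes with edgeR (4.0.16, R 4.3.3), using TMM factors, filterByExpr (at least 10 counts, 15 in all) and the robust quasi-likelihood test, within each tissue and, for the interaction, over 18 libraries, with Benjamini-Hochberg adjustment over all genes tested. A gene with an adjusted p under 0.05 was called. The SE of a log2 fold change was worked back from the test, as its absolute value over the square root of the quasi-likelihood F statistic. CPM in the text are TMM-scaled. Values of a library were compared by exact two-sided permutation tests (SciPy 1.17.1). The steps were tested on simulated data. No 2 libraries held identical values.

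Named genes were all TIMPs, called members with an average log2 CPM of at least 0 (up to 12 per direction and tissue), called interaction members, 16 members by role, and the 3 called genes of smallest adjusted p of each related list and tissue. Members and lists were chosen with earlier results of these data known. 1 further Mmp gene matching the pattern was left out and is not reported here. Symbols were matched by gene ID, and positions are those of the deposited files. Alternatives were RLE factors, library size alone, no filter and a stricter filter, DESeq2 (1.42.0), limma voom (3.58.1), ribosomal RNA genes left out, protein-coding genes alone, replicate number as a block, all groups in one fit and each library left out in turn. Leaving out libraries high in lymphocyte, skeletal muscle or ribosomal RNA was chosen after seeing the data.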

Additional observations from a re-analysis of the deposited data

Results flagged for a closer look

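In 18 of 266 groups of libraries examined, 1 library lay far from the rest of its group by Dixon's outlier ratio, taken at its 5% level, so that chance alone gives about 1 in 20 groups. In sWAT Ctrl 1, *Adamts6* was at 10.7 against 5.50 to 5.69 CPM in the other Ctrl libraries, and summed markers were 22699 against 28877 to 29487 CPM for adipocytes, 286 against 10.5 to 18.3 for T cells and 189 against 5.82 to 15.7 for B cells. In sWAT *Csn8* AKO 2, *Adamts6* was at 11.9 against 3.10 to 4.49 CPM and *Cd44* at 134 against 75.5 to 81.4 CPM. The same library had 30.1 against 14.5 to 16.1 CPM of neutrophil markers, 373 against 10.5 to 35.6 of T cell markers and 502 against 5.38 to 17.0 of B cell markers. Whether lymphocytes carry the *Adamts6* reads of these 2 libraries was not tested.

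*Mmp9* in sWAT Ctrl 2 was at 26.1 against 18.5 to 19.7 CPM. In sWAT Ctrl 3, skeletal muscle markers summed to 2992 against 180.5 to 574 CPM and cartilage markers to 4.21 against 3.74 to 3.80 CPM. In BAT Ctrl 4, *Adam8* was at 3.12 against 1.86 to 2.04 CPM and *Trem2* at 0.517 against 0.108 to 0.186 CPM. In BAT Ctrl 5, *Adamts15* was at 2.54 against 6.59 to 7.42 CPM and *Thbs2* at 4.94 against 6.84 to 7.39 CPM. BAT *Csn8* AKO 2 had *Mmp14* at 17.0 against 39.2 to 46.3 CPM and ribosomal RNA genes at 15.1 against 1.06 to 4.10 percent of reads. That library was also the lowest of its group for *Mmp2*, *Adamts4*, *Timp2* and *Adam23*, and the part of its ribosomal RNA share in this was not tested.

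The genotype effect differed between tissues for 2 named members, tested as an edgeR interaction. For *Adam19* the log2 fold change in BAT minus that in sWAT was 0.87, and for *Adamts3* it was -2.31. Tissue and age cannot be told apart in either.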

How the results depend on the processing

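Of 4 named members called in sWAT, 2 kept their call with each library left out in turn and 1, *Adam8*, under all alternatives. In BAT 19 of 20 kept it without any single library and 16 under all alternatives, and no named member reversed a call. In sWAT 5 members were called. Library size alone gave 2, DESeq2 10, limma voom 11, the replicate block 3, all groups in one fit 10, leaving out the lymphocyte-marker libraries 11 and leaving out those high in ribosomal RNA 3. Leaving out 1 library gave 2 to 11. The count with a log2 fold change of at least 1, which was 4, became 2 with library size alone and 2 to 5 without 1 library. In BAT the 30 calls, and the 15 with a log2 fold change of at least 1, stayed within 1.5 times under each alternative (24 to 37 and 13 to 20). The interaction called 2 members, 5 with library size alone, 5 with DESeq2, 6 with limma voom, 1 with the replicate block and 2 to 5 without 1 library. Causes were not tested. Library size alone moved the median log2 fold change of all genes from 0.01 to 0.14 in BAT and from 0.00 to 0.21 for the interaction, and the share of all calls that were higher from 43.4% to 24.4% in sWAT, 50.3% to 66.7% in BAT and 68.0% to 92.7% for the interaction.

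Replicate numbers did not pair the libraries: deviations of same-numbered libraries correlated at -0.387 to 0.223 in sWAT and at -0.0975 to 0.101 in BAT, and not each matched its own number best. With the block 3 calls of members were not made in sWAT, *Timp1* (adjusted p = 0.119), *Adam23* (0.0926) and *Adam5* (0.133), and *Timp4* was called lower (0.0309). In BAT *Adamts15* (0.0661), *Adam1a* (0.0857) and *Mmp28* were not called and *Adam12* was (0.0403), and in the interaction *Adam19* was not (0.0579). Of the related genes named in sWAT, *Plaur*, *Ctsh*, *Anpep*, *Vcan*, *Tnfrsf1b*, *Ctsc* (0.107) and *Cstb* (0.140) were not called with the block. In BAT *Pcsk6* was not (0.0581), and *Anxa2* was called lower (0.0181). Limits are 4 or 5 libraries per group, few reads for *Timp1*, *Adam3*, *Adam5* and *Mmp13*, overlapping genes counted with unknown strand use, and bulk RNA of mixed cells.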
